A study of Canis lupus familiaris with 34 samples.

Results

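The antigen presentation genes described here are 10 genes whose products build, load or switch on major histocompatibility complex (MHC) molecules: HLA-DRA, HLA-DMA, HLA-DMB, HLA-DOA, CD74, CIITA, B2M, TAP1, TAP2 and PSMB9. The rule that picks their features uses the symbol and no measured value, and each gene was read from 1 of the 23768 features of the deposited count table. Where the same symbol was listed both as a canine RefSeq feature and as a human alignment, the canine feature was used. The canine features of 4 class II members carry DLA symbols (DLA-DRA, DLA-DMA, DLA-DMB and DLA-DOA), so the human alignments were used for these and the DLA features served for the levels per length. All 10 genes passed the minimum sum of 100 counts over all dogs, which left 19568 features in the table, and no other feature held counts identical to those of a member.

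The measurements are poly-A RNA sequencing of mitral valve tissue from 34 Cavalier King Charles Spaniels with an age of about 10 years. The 19 dogs called 10y-noCHF (10 females and 9 males, labelled controls) had no congestive heart failure (CHF). All but 1 of them, per the study, had myxomatous mitral valve disease (MMVD). Their MMVD is called milder by the submitters, but this group was mixed and also took in dogs with advanced disease of the valve. The 15 dogs called 10y-MMVD-CHF (6 females and 9 males, labelled cases) had MMVD that had led to CHF. The 10y-noCHF dogs as a group therefore do not stand for healthy valves, 1 breed was studied, and each dog gave 1 library. Total counts per dog ranged from 46185256 to 82361245. Markers of valve interstitial cells summed to 15323 to 39358 CPM per dog (CPM are counts after TMM scaling to equal library sizes), whereas markers of cardiomyocytes ranged from 57.8 to 60830 CPM, so the samples held very different amounts of heart muscle RNA. The 10y-MMVD-CHF dogs CAV1047 and CAV614 were least like the other dogs, with a median Pearson correlation of counts with the others of 0.657 and 0.751 once features whose mean was above 10000 had been left out, against at least 0.852 for each of the other dogs. On log2(CPM + 1) over all features tested the values were 0.940 and 0.967, and the next dog had 0.969. Results were therefore repeated without them, and no member gained or lost a call. In bulk tissue of this kind, fewer cells of a type and less RNA per cell cannot be told apart.

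Cells present peptides in 2 ways. MHC class II molecules are built mainly by macrophages, dendritic cells and B cells and show peptides from engulfed material to helper T cells, and in these cells the coactivator CIITA is known as the master switch of class II transcription. MHC class I molecules are found on nearly all nucleated cells and show peptides of the cell's own proteins to cytotoxic T cells, and their genes are raised by interferon. Resident macrophages and dendritic cells are a regular component of heart valves.

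The class II genes lie close together on canine chromosome 12 (canFam4). HLA-DRA (2287858 to 2292450, plus strand) encodes the alpha chain of the main peptide-presenting heterodimer. HLA-DMB (2658255 to 2663580) and HLA-DMA (2672105 to 2675695), both on the minus strand, encode the chains of HLA-DM, which exchanges the placeholder peptide for antigen. HLA-DOA (2718582 to 2721944, minus strand) encodes a chain of HLA-DO, which restrains HLA-DM. CD74, the invariant chain that escorts class II molecules, is on chromosome 4 (59604633 to 59614176, plus strand), and CIITA is on chromosome 6 (32060492 to 32108042, minus strand). These 6 features are human RefSeq alignments that run across the whole gene, introns included.

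The class I genes were counted on canine RefSeq exons. TAP2 (2562597 to 2572236) and TAP1 (2578931 to 2587126), both on the minus strand of chromosome 12, encode the subunits of the transporter that carries peptides into the endoplasmic reticulum. PSMB9 (2587463 to 2593086, plus strand), a catalytic subunit of the immunoproteasome that cuts such peptides, starts 336 bases from TAP1 on the opposite strand. B2M, the light chain of all class I molecules, is on chromosome 30 (11616855 to 11621737, plus strand).

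Some of these features share sequence with others, and the counting assigned a read to every feature it overlapped and used no strand. The span of CIITA shared 5751 bases (12.1%) with DEXI, which is transcribed from the opposite strand and had 108746 counts in total against 101809 for CIITA. Reads of DEXI and CIITA in that stretch cannot be told apart. The HLA-DPA1 feature lies within HLA-DRA, and PSMB8-AS1 shared 646 bases with the span of TAP1.

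Levels could be compared between genes only per length, with the canine RefSeq features, which exist for all members but CD74 and CIITA. On the scale of CPM per kilobase, the class II alpha chain and the class I light chain had the highest values. The features differ in length, with 381 bases for B2M and 769 for HLA-DRA. A read was counted on any feature it overlapped, so this scale can favour short features, and the size of this effect was not tested. HLA-DRA had a lowest, median and highest level of 240, 697 and 1467, and B2M had 385, 628 and 1126. HLA-DRA was the higher of the pair in 19 of 34 dogs, and the difference was within the spread between dogs (mean log2 ratio 0.02 ± 0.52 SD, two-sided permutation test, adjusted p = 0.846).

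The peptide editors and the class I processing genes were far lower. HLA-DMB had a median of 37.6 CPM per kilobase and HLA-DMA 27.3, and HLA-DMB was the higher in 34 of 34 dogs. TAP1, PSMB9 and TAP2 had medians of 13.96, 13.7 and 8.26. TAP1 and PSMB9 were close (mean log2 ratio of TAP1 to PSMB9 -0.09 ± 0.22 SD), with TAP1 the higher in 13 of 34 dogs (permutation test, adjusted p = 0.0185). Their features have 2881 and 831 bases, so the order of this pair carries the same limit of length. HLA-DOA was nearly absent, with a median of 0.221 CPM per kilobase. All neighbours in this order other than HLA-DRA with B2M and TAP1 with PSMB9 kept their order in 34 of 34 dogs (adjusted p = 1.4e-05, from the smallest p that 100000 resamples give).

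**Figure D1:**
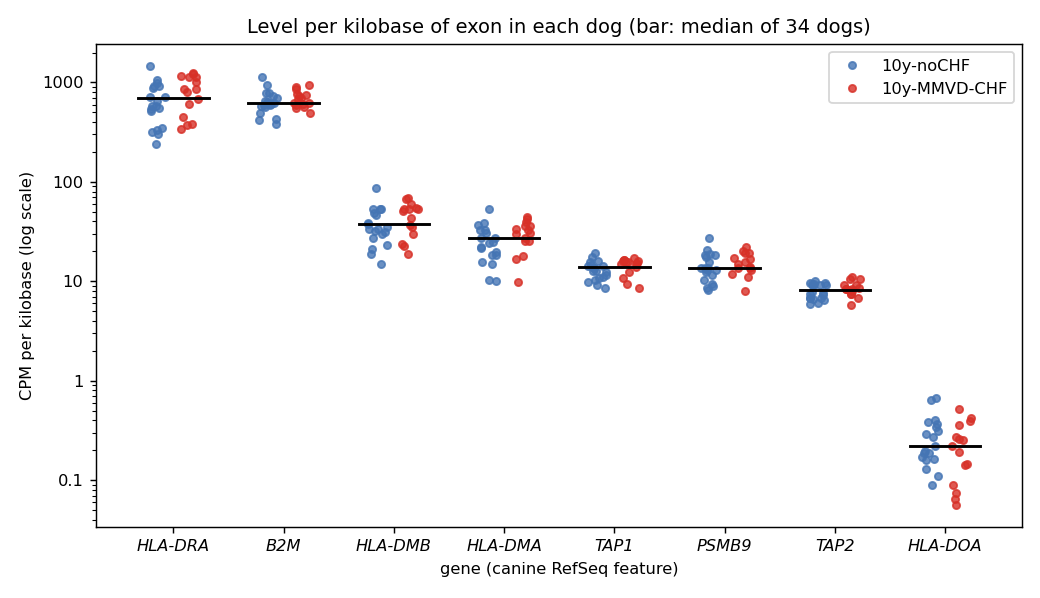
Level of the 8 members with a canine RefSeq feature, in CPM per kilobase on a log axis, with 1 point per dog and a bar at the median of 34 dogs. HLA-DRA and B2M sit together at medians of 697 and 628, and HLA-DOA is far below all others at 0.221.

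Within each gene the dogs differed to very unequal degrees. HLA-DRA ranged from 266 CPM in CAV748 to 1479 CPM in CAV743, a 5.56-fold range, with a coefficient of variation (CV) of 44.7% over 34 dogs. CD74, HLA-DMB and HLA-DMA had nearly the same spread, with CVs of 42.8%, 40.03% and 36.3%. Their SD of log2(CPM + 1) around the means of CHF status and sex was above that of 91.4% (HLA-DMA) to 95.1% (HLA-DRA) of all features tested, and above that of 86.3% (CD74) to 94.9% (HLA-DMB) of features of similar level (51 to 3345 features with a mean CPM near that of the gene). CIITA, the coactivator of these same genes, ranged from 33.9 CPM in CAV901 to 61.5 CPM in CAV614, a 1.82-fold range, and its SD was above that of 41.2% of all features and of 58.0% of features of similar level. This feature includes introns and overlaps DEXI, so its narrow range may not be that of CIITA transcripts alone. The class I genes lay between, with CVs of 17.2% for TAP2, 20.7% for TAP1, 24.1% for B2M and 29.8% for PSMB9. HLA-DOA had a CV of 60.5%, but only 6 to 129 counts per dog, so counting error is a larger part of its spread.

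**Figure D2:**
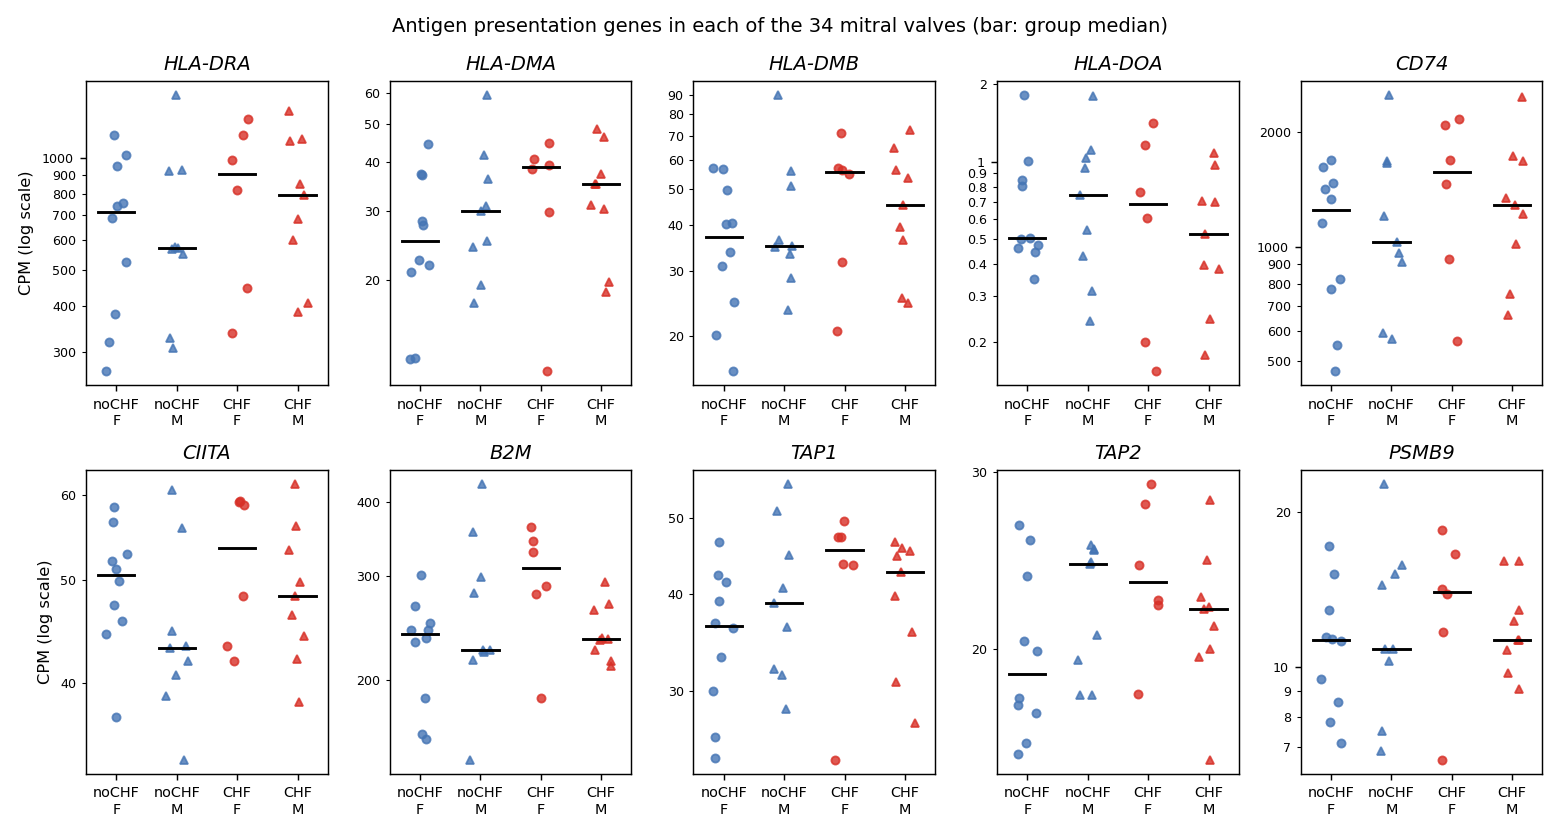
CPM of each gene in each dog on a log axis, by CHF status and sex (F, females; M, males; circles, females; triangles, males), with bars at the group medians. The 10y-noCHF and 10y-MMVD-CHF dogs overlap for every gene, and the vertical axis of CIITA spans 33.9 to 61.5 CPM whereas that of HLA-DRA spans 266 to 1479 CPM.

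The same dogs were high or low across most members. The 10y-noCHF male CAV743 had the highest CPM of all dogs for HLA-DRA, HLA-DMA, HLA-DMB, CD74, B2M, TAP1 and PSMB9, but was at rank 20 of 34 for TAP2. The females CAV748 and CAV1731 (10y-noCHF) and CAV1047 (10y-MMVD-CHF) ranked between 30 and 34 for each of HLA-DRA, HLA-DMA, HLA-DMB and CD74. In CAV1047, CIITA was at rank 4, while TAP1 and PSMB9 were at rank 34.

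In some dogs the ranks of class II and class I genes differed, though not for every gene. CAV614 ranked second for the 4 class II genes HLA-DRA, HLA-DMA, HLA-DMB and CD74, and was at rank 20 for B2M, 17 for TAP2, 14 for TAP1 and 5 for PSMB9. CAV2156 was at ranks 3 to 9 for these class II genes and at ranks 18 to 28 for the class I genes. CAV487 was at rank 28 for each of the 4 class II genes and for B2M, but at rank 19 for PSMB9, 9 for TAP1 and 2 for TAP2.

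The first comparison of the design asks whether valves of dogs in CHF differ from valves of dogs without it. HLA-DRA had 266, 575 and 1479 CPM (lowest, median and highest) in 10y-noCHF and 337, 821 and 1338 CPM in 10y-MMVD-CHF. CD74 had 471, 1156 and 2504 CPM in 10y-noCHF and 565, 1344 and 2479 CPM in 10y-MMVD-CHF. No 10y-MMVD-CHF dog was outside the range of the 10y-noCHF dogs for either gene, although 11 of 15 were above the 10y-noCHF median for HLA-DRA and 10 of 15 for CD74. The log2 fold change was 0.26 (SE 0.23, 95% interval -0.20 to 0.72) for HLA-DRA and 0.25 (SE 0.22, interval -0.19 to 0.69) for CD74, and neither passed edgeR's quasi-likelihood test (unadjusted p = 0.260 and 0.256, Benjamini-Hochberg adjusted p = 0.914 and 0.912).

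The editors followed the same pattern. HLA-DMA had 12.6, 27.7 and 59.4 CPM in 10y-noCHF and 11.7, 35.3 and 48.7 CPM in 10y-MMVD-CHF. HLA-DMB had 16.1, 35.02 and 90.3 CPM in 10y-noCHF and 20.6, 53.6 and 72.7 CPM in 10y-MMVD-CHF. The medians were higher in 10y-MMVD-CHF, yet the ranges overlapped almost completely, with log2 fold changes of 0.21 (SE 0.19) and 0.24 (SE 0.20). HLA-DOA had 0.241, 0.541 and 1.82 CPM in 10y-noCHF and 0.154, 0.604 and 1.41 CPM in 10y-MMVD-CHF, and was the only member with a negative log2 fold change (-0.25, SE 0.31, interval -0.88 to 0.37).

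CIITA had 33.9, 45.7 and 60.7 CPM in 10y-noCHF and 38.4, 48.3 and 61.5 CPM in 10y-MMVD-CHF. The dogs of both groups again covered the same range. Its log2 fold change of 0.10 (SE 0.08) had the narrowest interval of the 10 genes, -0.06 to 0.25, so that a rise of more than 1.19-fold lies outside it (edgeR unadjusted p = 0.209, adjusted p = 0.889). The interval holds for the counted feature, which may include DEXI reads, and not for CIITA transcripts alone.

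For the class I genes, B2M had 147, 236 and 429 CPM in 10y-noCHF and 187, 262 and 363 CPM in 10y-MMVD-CHF. TAP1 had 24.6, 36.7 and 55.4 CPM in 10y-noCHF and 24.5, 43.6 and 49.6 CPM in 10y-MMVD-CHF. For B2M 5 of 19 10y-noCHF dogs were outside the range of the 10y-MMVD-CHF dogs, and for TAP1 2 of 19 were. TAP2 had 15.7, 20.4 and 26.6 CPM in 10y-noCHF and 15.5, 22.1 and 29.2 CPM in 10y-MMVD-CHF, where 4 of 15 dogs were outside the 10y-noCHF range. PSMB9 had 6.87, 11.3 and 22.8 CPM in 10y-noCHF and 6.61, 12.3 and 18.4 CPM in 10y-MMVD-CHF. The log2 fold changes of these 4 genes were between 0.09 (PSMB9, SE 0.15) and 0.12 (TAP1, SE 0.10), and their unadjusted p was between 0.267 and 0.542.

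Of the 10 genes, 0 passed edgeR's quasi-likelihood test at a Benjamini-Hochberg false discovery rate (FDR) of 0.1, against 0.118% of all features (23 of 19568). None had an unadjusted p below 0.05, against 6.31% of all features, and DESeq2 and limma voom also called 0 of the 10. The log2 fold change was above 0 in 9 of 10 genes, against 52.6% of all features, with a median of 0.11 against 0.01 over all features. These genes varied together across dogs, so the 9 positive values are not 9 separate observations.

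Markers of macrophages were examined beside these values. Of 12 macrophage markers, 0 passed the edgeR test. For 1 of them, CD14, the unadjusted p was below 0.05 (0.00485, edgeR adjusted p = 0.480), against 6.31% of all features. A log2 fold change above 0 was found for 10 of these markers, against 52.6% of all features. Their summed level was 691 to 1889 CPM with CHF against 564 to 2041 CPM without it, their median log2 fold change was 0.20, and none was at 0 in every dog. With the macrophage marker mean as a covariate the log2 fold change of HLA-DRA was 0.03, that of CD74 0.00, that of HLA-DMB 0.03, that of HLA-DMA -0.02 and that of B2M -0.01. It was 0.02 for TAP1, 0.05 for TAP2, -0.04 for PSMB9 and 0.08 for CIITA, and that of HLA-DOA was -0.53 (unadjusted p = 0.0922). None passed the edgeR test in that fit. Of 11 dendritic cell markers, 5 had a log2 fold change above 0 with CHF, against 52.6% of all features, with a median of -0.01. Whether cell content accounts for the differences of the members was not tested.

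**Figure D3:**
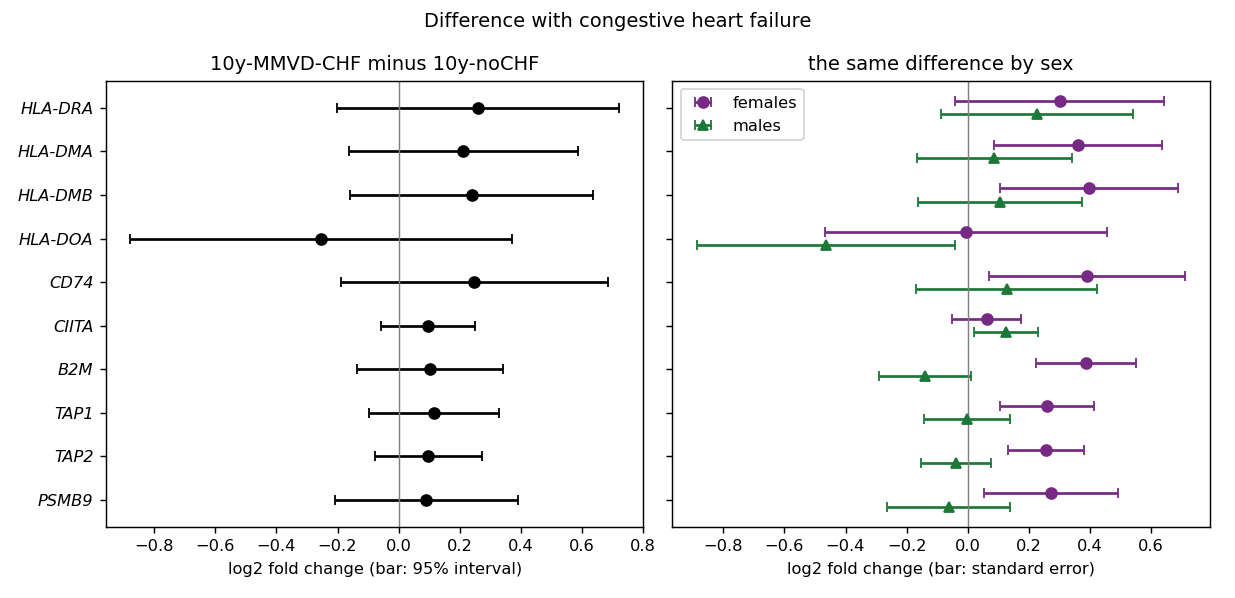
Left, log2 fold change of each gene in 10y-MMVD-CHF against 10y-noCHF with its 95% interval, and right, the same difference in females (circles) and males (triangles) with standard errors. Every interval on the left includes 0, and B2M has the largest distance between the sexes, 0.39 in females and -0.14 in males.

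Whether the difference depended on sex was tested with an interaction term. In females the lowest, median and highest B2M levels were 159, 239 and 301 CPM in the 10 10y-noCHF dogs and 187, 309 and 363 CPM in the 6 10y-MMVD-CHF dogs. In males they were 147, 225 and 429 CPM in the 9 10y-noCHF dogs and 211, 234 and 293 CPM in the 9 10y-MMVD-CHF dogs. The groups overlapped in both sexes. Its log2 fold change was 0.39 (SE 0.16) in females and -0.14 (SE 0.15) in males, a difference of 0.53 (95% interval 0.07 to 0.98). The unadjusted p of this difference was 0.0239, and it did not pass the test over all features (edgeR adjusted p = 0.815). Over the 10 genes the difference had a median of 0.28, against 0.003 over all features, and that of CIITA was negative (-0.06). These genes varied together across dogs, so they are not 10 separate observations. The next smallest unadjusted edgeR p was that of TAP2 (0.0923). At an FDR of 0.1 the interaction was called in 0 of the 10 genes by edgeR, DESeq2 and limma voom, against 0% of all features by edgeR, and 1 of the 10 had an unadjusted p below 0.05, against 6.02% of all features.

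The sexes were compared in the same fit. Of the 10 genes, 0 passed the edgeR test for sex, against 0.143% of all features, and 0 had an unadjusted p below 0.05, against 2.98%. DESeq2 and limma voom called 0 of the 10 as well. CIITA had the smallest unadjusted p (0.124), with 50.4 ± 6.87 CPM (SD, n = 16) in females and 46.8 ± 7.87 CPM (SD, n = 18) in males.

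The members were then compared with each other across the 34 dogs, on log2(CPM + 1) after the means of the 4 groups of CHF status and sex had been removed. The 2 values of a pair come from the same library and depth. Of 45 pairs, 40 had a positive and 1 a negative Spearman correlation at an adjusted p below 0.1 (two-sided permutation test, 100000 resamples, Benjamini-Hochberg over the 45 pairs).

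HLA-DRA, HLA-DMA, HLA-DMB and CD74 formed a tight group. HLA-DRA and CD74, which lie on different chromosomes, had a Spearman's rho of 0.96 and a Pearson's r of 0.97 (adjusted p = 5e-05 and 2.2e-05, the smallest possible here), and r was 0.97 without the 2 dogs farthest from the median of HLA-DRA. The 6 pairs among these 4 genes had rho between 0.91 and 0.96. The range was 0.93 to 0.95 within 10y-noCHF alone and 0.89 to 0.99 within 10y-MMVD-CHF alone. HLA-DRA was the feature most like CD74 of all 19567 other features.

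HLA-DOA followed less closely, with a rho of 0.62 with HLA-DRA (r = 0.59, adjusted p = 0.00027 and 0.00057, r = 0.54 without the 2 farthest dogs). Its rho with HLA-DRA was 0.56 within 10y-noCHF and 0.68 within 10y-MMVD-CHF.

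CIITA, the coactivator of class II genes, was positively related to the 4 of them, with rho from 0.40 (CD74 and HLA-DMA) to 0.47 (HLA-DRA). For HLA-DMA and CD74 the adjusted p was 0.024, and for HLA-DMB it was 0.0093. Its rho with HLA-DRA was 0.47 (r = 0.52, adjusted p = 0.0084 and 0.003), and r was 0.67 without the 2 dogs farthest from the median of HLA-DRA. Within groups rho was 0.40 in 10y-noCHF (adjusted p = 0.11) and 0.50 in 10y-MMVD-CHF (adjusted p = 0.15), and of its relations with the 4 genes that with HLA-DMA in 10y-noCHF alone passed the test within a group (rho = 0.42, adjusted p = 0.097). With the macrophage marker mean also removed, its rho with HLA-DRA was 0.62. With the class I genes the rho of CIITA was 0.04 for B2M, -0.07 for TAP1, 0.10 for PSMB9 and -0.33 for TAP2 (adjusted p = 0.068 for TAP2), and it was 0.42 with the overlapping DEXI feature. The part of DEXI reads in these values was not tested.

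**Figure D4:**
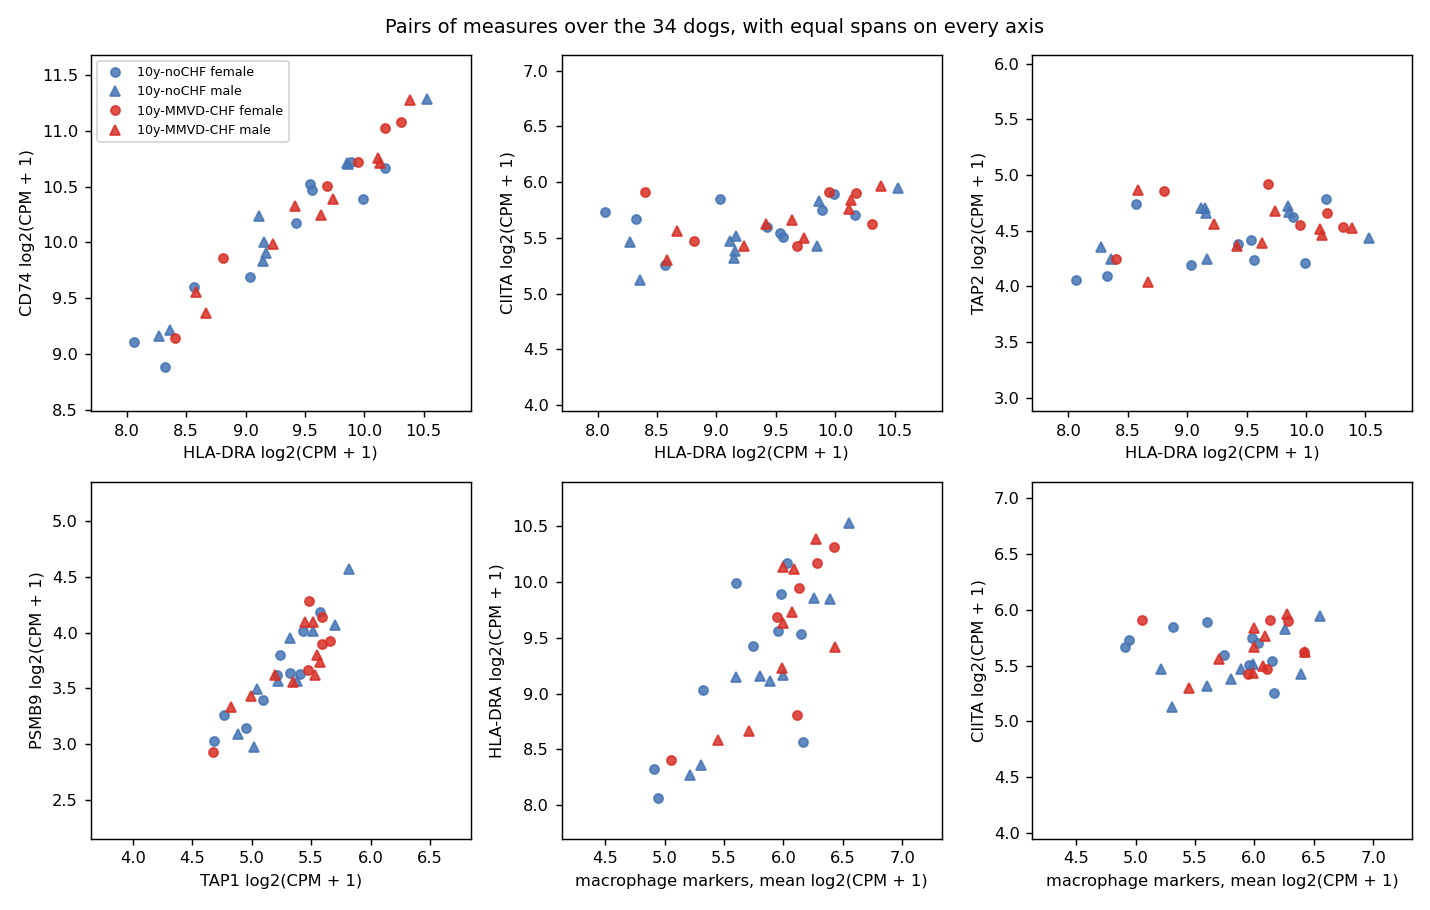
Pairs of measures in each of the 34 dogs on log2(CPM + 1) scales with equal spans, by CHF status (blue, 10y-noCHF; red, 10y-MMVD-CHF) and sex (circles, females; triangles, males). CD74 climbs with HLA-DRA over the whole range, whereas CIITA and TAP2 stay within a narrow band as HLA-DRA varies, and CIITA also as the macrophage markers vary. The CIITA feature may include DEXI reads.

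Among the class I genes, TAP1 and PSMB9 were the closest pair (rho = 0.83, r = 0.87, adjusted p = 5e-05 and 2.2e-05, r = 0.85 without the 2 farthest dogs). Their rho was 0.93 within 10y-noCHF and 0.63 within 10y-MMVD-CHF. B2M, on another chromosome, had a rho of 0.79 with TAP1 and 0.77 with PSMB9. TAP2 forms 1 transporter with TAP1 and lies near it on the same strand. Its rho with TAP1 was 0.65 (r = 0.71, permutation test, adjusted p = 0.00013 and 2.2e-05, r = 0.62 without the 2 farthest dogs). Among the 19567 other features ordered by rho with TAP1, PSMB9 was at rank 4 and TAP2 at rank 230.

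Class II and class I genes were linked more loosely. The 16 pairs of HLA-DRA, HLA-DMA, HLA-DMB and CD74 with B2M, TAP1, TAP2 and PSMB9 had rho between 0.30 (HLA-DRA with TAP2) and 0.69 (CD74 with B2M), with a median of 0.61. The median was 0.75 within 10y-noCHF, where 16 of 16 pairs had an adjusted p below 0.1, and 0.30 within 10y-MMVD-CHF, where 0 of 16 had. The groups differ in size (19 and 15 dogs), and the difference between them was not tested. In 10y-MMVD-CHF the 2 kinds of correlation also disagreed for some pairs, as for B2M with TAP1, where r was 0.76 and rho 0.44. With the macrophage marker mean also removed, the median of these 16 pairs was 0.21, while the 6 pairs among the 4 class II genes kept a median of 0.82.

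**Figure D5:**
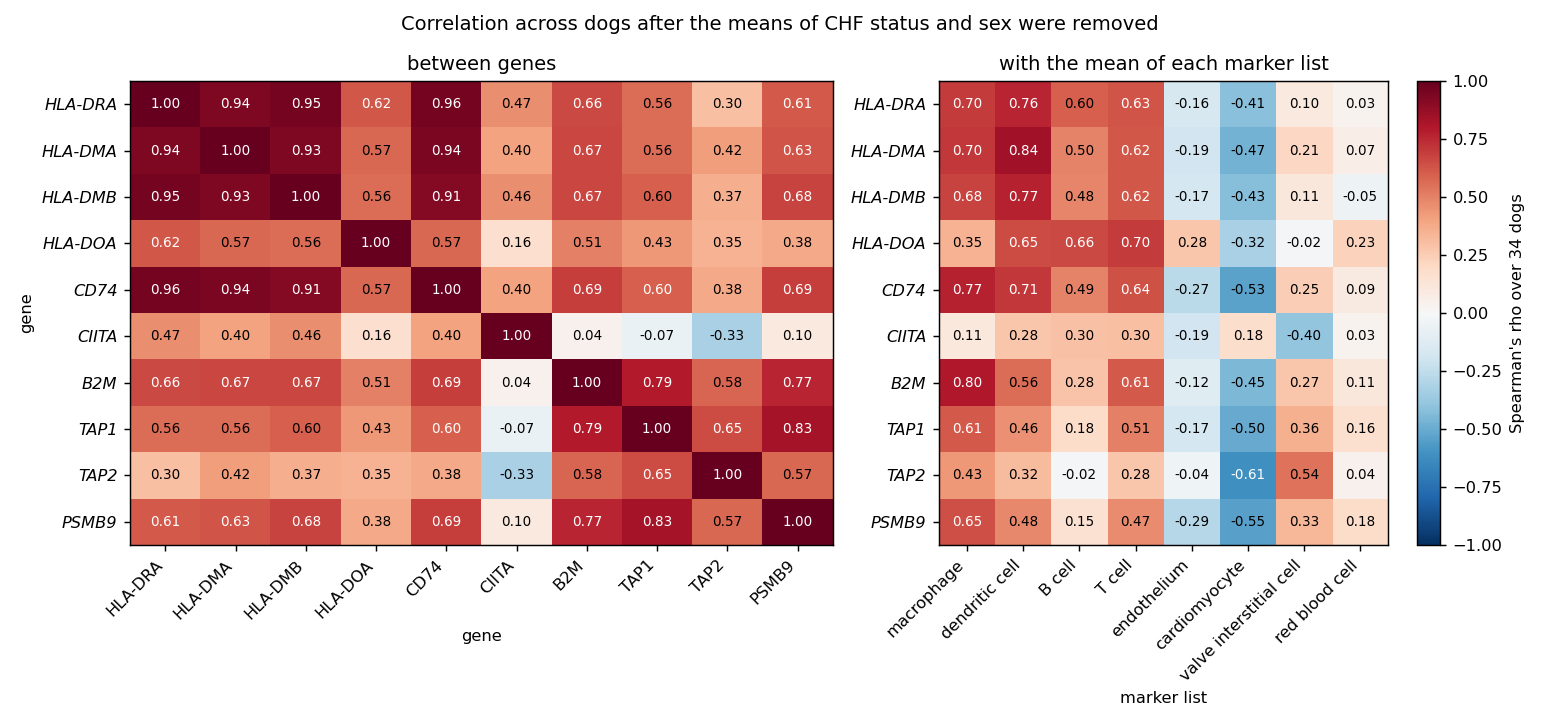
Spearman's rho over 34 dogs between the 10 genes (left) and of each gene with the mean of each marker list (right), after the means of CHF status and sex were removed. The 4 class II genes form the darkest block (0.91 to 0.96), CIITA is the palest row on the left, and the cardiomyocyte column is negative for all genes but CIITA.

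The members were set beside markers of the cell types a valve sample could hold, over 80 relations adjusted together. The macrophage marker mean had a rho of 0.68 to 0.77 with HLA-DRA, HLA-DMA, HLA-DMB and CD74 and of 0.80 with B2M (r = 0.85, adjusted p = 0.00013 for rho, r = 0.84 without the 2 farthest dogs). For B2M the rho was 0.92 within 10y-noCHF (adjusted p = 0.0008) and 0.52 within 10y-MMVD-CHF (adjusted p = 0.16), a difference that was not tested. CIITA had a rho of 0.11 with the same markers (adjusted p = 0.62).

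Dendritic cell markers had their highest rho with HLA-DMA (0.84, r = 0.84, adjusted p = 0.00013 for rho). They remained related within both groups, with a rho of 0.78 in each. Several of these markers were near the floor, with means of 0.15 CPM for CD1C, 0.28 for FCER1A, 0.49 for CCR7 and 0.78 for LAMP3. ITGAX and ZBTB46 had the highest means, 35.3 and 26.8 CPM. Which markers of the list carry the relation was not tested. B cell and T cell markers had their highest rho with HLA-DOA, 0.66 and 0.70 (adjusted p = 0.00033 and 0.0002), while the rho of HLA-DOA was 0.65 with dendritic cell markers (adjusted p = 0.00037) and 0.35 with macrophage markers. These B cell markers summed to 2.48 to 10.03 CPM per dog and the T cell markers to 7.57 to 48.9 CPM, so both were scarce.

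Endothelial and red blood cell markers had no relation at an adjusted p below 0.1 with any of the 10 genes, and their rho lay between -0.29 and 0.28. The cardiomyocyte mean was negatively related to 8 of 10 genes, most with TAP2 (rho = -0.61, r = -0.58, adjusted p = 0.00092 for rho), while CIITA had 0.18. Whether the share of heart muscle RNA in a library accounts for these relations was not tested. With the cardiomyocyte marker mean also removed, 35 of the 45 pairs of members still had a positive rho at an adjusted p below 0.1. Valve interstitial cell markers had a rho of 0.54 with TAP2 and of -0.40 with CIITA.

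The 8 features outside the members most like HLA-DRA were DLA-DRA, HLA-DPA1, HLA-DQB2, HLA-DRB1, HLA-DQB1, HLA-DRB3, HLA-DRB5 and DLA-DQB1, with rho from 0.96 to 0.99 over 34 dogs. They are class II chains that overlap HLA-DRA or are near-identical copies of each other, so their reads are partly shared. Those most like TAP1 included PSMB8-AS1, MIR10393, HLA-B, OASL, PSMB8, SLC2A6 and HLA-C, with rho from 0.80 to 0.92. PSMB8-AS1 shared 646 bases with the span of TAP1, so their reads may be partly shared. HLA-B had a mean of 803 CPM but 14.2 CPM per kilobase, and HLA-C had 1603 and 7.4. The HLA-B and HLA-C features are therefore long and may include reads of other genes, which was not tested.

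The rest of the pathway showed the same absence of calls for CHF. Of 13 tested class II chains, proteases and helpers outside the members, HLA-DQA1 and HLA-DQA2 held identical counts, which leaves 12 features with distinct counts. They are not 12 separate observations. HLA-DPA1 lies within the member HLA-DRA, and the reads of HLA-DRB1 and HLA-DRB5, and of HLA-DQB1 and HLA-DQB2, are partly shared. Of these 12, 0 passed the edgeR test and 0 had an unadjusted p below 0.05 (6.31% of all features), with 11 above 0 (52.6% of all features) and a median log2 fold change of 0.07. HLA-DRB1, the partner chain of HLA-DRA, had 632 ± 246 CPM with CHF (SD, n = 15) against 488 ± 237 CPM without it (SD, n = 19) (log2 fold change 0.36, SE 0.22). HLA-DPA1, which cannot be separated from HLA-DRA, had a log2 fold change of 0.31.

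Of 22 class I chains and loading factors, 0 passed the edgeR test (0.118% of all features). An unadjusted p below 0.05 was found for 2, in opposite directions (6.31% of all features). The log2 fold change was above 0 in 12 of 22 (52.6% of all features), with a median of 0.01. The canine class I heavy chain DLA88 had 476 ± 152 CPM with CHF (SD, n = 15) against 320 ± 139 CPM without it (SD, n = 19). Its log2 fold change of 0.57 (SE 0.18) had an unadjusted p of 0.00331 and an edgeR adjusted p of 0.438. The heavy chain gene DLA-12 had 233 ± 62.9 CPM with CHF against 287 ± 106 CPM without it (log2 fold change -0.28, SE 0.16), and the HLA-G feature, which lies within DLA-12, had a log2 fold change of -0.53 (SE 0.22, unadjusted p = 0.0241, adjusted p = 0.716). Across dogs DLA88 had a rho of -0.01 with DLA-12, although B2M, the light chain of both, had 0.45 with DLA88 and 0.67 with DLA-12. These heavy chain genes are polymorphic and near-identical, so their reads could be split between copies and the values are uncertain.

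Of 17 tested regulators, 0 passed the edgeR test and 0 had an unadjusted p below 0.05, against 6.31% of all features. A log2 fold change above 0 was found for 16 of 17, against 52.6% of all features, with a median of 0.02 against 0.01. JAK1 and IFNGR2, which carry the interferon signal, were named by the rule on counts per kilobase of feature, which does not rank levels here because most features of this list span introns. Their log2 fold changes were 0.13 (SE 0.07) and 0.02 (SE 0.08). IFNG, the ligand, did not reach the minimum sum of counts.

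Of 12 tested genes of class II turnover and co-stimulation, 0 passed the edgeR test (0.118% of all features). The log2 fold change was above 0 in 9 of 12 (52.6% of all features), with a median of 0.08. An unadjusted p below 0.05 was found for 1 (6.31% of all features). The gene with this p was CD9, a tetraspanin of the cell surface, with 142 ± 27.6 CPM with CHF (SD, n = 15) against 182 ± 54.6 CPM without it (SD, n = 19) (log2 fold change -0.37, SE 0.12, unadjusted p = 0.00516, edgeR adjusted p = 0.480). The adhesion molecule ICAM1 and the co-stimulator CD86, named by the same rule on counts per kilobase and with the same limit, had log2 fold changes of -0.02 and 0.10.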

How the data were processed

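Alignment was to canFam4 with STAR, and the authors deposited raw feature counts from featureCounts 2.0.3. Per the file headers a read was counted on every feature it overlapped, without strand, and the table pairs 2165 canine RefSeq with 21603 human RefSeq features and gives the authors' feature length in bases (another deposited column). Per the submitters' processing notes FastQC and DESeq2 were also used. 1 further count column matched no labelled dog and was not used. Groups and sex follow the labels.

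Counts were tested with edgeR 4.0.16 (R 4.3.3, TMM, quasi-likelihood test, sex as a fixed effect, FDR 0.1) for features that reached a summed count of 100 over the 34 dogs. SEs were derived from the F statistic and are approximate. CPM are counts scaled with TMM to a common library size. Alternatives were DESeq2 1.42.0 (the study's tool), limma 3.58.1 voom with sample weights, RLE and upper-quartile scaling, filterByExpr, no filter, no sex term, robust dispersion, collapsed identical features, FDR 0.05, each sex alone, marker means as covariates, a permutation test, and each dog left out. The other feature of the same gene, and removal of the macrophage mean from pairs, were added after seeing the data. The scripts were tested on simulated data. Correlations used scipy and numpy with 100000 resamples. p-values describe the spread between single dogs.

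Named genes were all 10 members, of each pathway list the genes with an unadjusted p below 0.05 and the 2 with the highest count per kilobase of feature, and the 8 features most like HLA-DRA and TAP1. A result for 1 feature that this rule names is not reported here. The members and lists were chosen with earlier results of these data known. Sequences were not used here.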

Additional observations from a re-analysis of the deposited data

Results flagged for a closer look

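Each member was examined for a dog far from the others within each of the 4 groups of CHF status and sex, on log2(CPM + 1), which made 40 tests. Chance alone flags about 1 in 20 of such tests, or 2, and 2 were found. Both concerned the 10y-MMVD-CHF female CAV1047, which had the smallest library, 46185256 counts. Its HLA-DMA level was 11.7 CPM, against 29.8 CPM in the nearest of the 6 females of its group, a gap of 0.691 of the group's range. Its TAP1 level was 24.5 CPM, against 43.5 CPM in the nearest female, a gap of 0.813 of the range. Without this dog the log2 fold change of TAP1 for CHF was 0.16, against 0.12 with it.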

How the results depend on the processing

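No paired analysis was possible because each dog gave 1 library and the labels share no replicate number between groups. In 143 settings for CHF, sex and their interaction, 0 of the 10 genes were called, with 0 to 0 for CHF, sex and interaction when each dog was left out. Over all alternatives the edgeR, DESeq2 or voom adjusted p of a member for CHF ranged from 0.392 (B2M, females alone) to 0.999991. Of 498 log2 fold changes recomputed, 491 kept their direction, including each of the 340 with 1 dog left out. Single dogs still moved sizes by over 1.5 times, at the extremes TAP2 from 0.10 to 0.06 (without CAV1519), PSMB9 from 0.09 to 0.04 (without CAV1259) or 0.17 (without CAV743), HLA-DOA from -0.25 to -0.12 (without CAV1939) or -0.40 (without CAV1196) and B2M from 0.10 to 0.06 (without CAV1876) or 0.17 (without CAV743). With the macrophage mean as covariate 3 turned, HLA-DMA to -0.0193, B2M to -0.00872 and PSMB9 to -0.0414. In males alone 4 turned, B2M to -0.139, TAP1 to -0.00213, TAP2 to -0.037 and PSMB9 to -0.0629.

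The 23 features called over the whole table became 64 with DESeq2, 9 at FDR 0.05, 35 with the macrophage covariate, 13 with no sex term and 0 in males or females alone (fewer dogs), and ranged from 8 (without CAV1519 or CAV2102) to 28 (without CAV743). It was 8 to 15 without any one of CAV1097, CAV1196, CAV1259, CAV1519, CAV1790, CAV1939, CAV2102, CAV2156, CAV444, CAV447, CAV488, CAV648, CAV749, CAV828 or CAV901. The 40 positive pairs of members became 11 in 10y-MMVD-CHF dogs alone and 20 with the macrophage mean removed, and the 32 positive relations with marker lists became 19 in 10y-MMVD-CHF dogs alone. That group has fewer dogs. Its median rho for the 16 pairs of class II with class I genes was also lower, 0.30 against 0.75 in 10y-noCHF. The cause of these changes was not tested. HLA-DOA, with 6 to 129 counts per dog, is limited by depth.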
